A study of Mus musculus with 16 samples.

Results

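Accessible chromatin was described around 9 genes of apoptotic cell clearance and scavenger uptake: Mertk, Axl, Gas6, Tgm2, Cd36, Scarb1, Msr1, Marco and Olr1. Overlapping ATAC-seq peaks of 4 lists were merged into 37648 regions, and a region was taken for a gene when its midpoint lay within 100 kb of the 5′ end of the gene record. This gave 85 regions. The lists came from bone marrow-derived macrophages (BMDMs) of C57BL/6J mice on day 8 of culture, after 1 day without serum. The Veh group received DMSO for 3 h, and the T0 group received T0901317, a synthetic agonist of the liver X receptors (LXRs), at 500 nM for 3 h. The LPS group had 3 h of DMSO and then 10 ng/mL of lipopolysaccharide, a bacterial agonist of TLR4, for another 2 h. The T0-LPS group had the agonist for 3 h and then LPS on top of it for 2 h. Each group had 4 libraries of 50000 cells, and the authors called peaks once per group on its 4 libraries together. All values therefore come from 1 list per group and have no replicate check, and a contrast between a list with LPS and a list without it also spans a difference in time in culture. The agonist was present 2 h longer in T0-LPS than in T0, so the changes with T0 without and with LPS also differ in agonist time.

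Macrophages remove dying cells in a process called efferocytosis. Mertk and Axl are receptor tyrosine kinases of the TAM family, and Gas6 is a secreted ligand that bridges them to phosphatidylserine on the dying cell. Tgm2, a transglutaminase, takes part in forming the engulfing portal. Cd36 and Scarb1 are class B scavenger receptors, for oxidized lipoproteins and for high-density lipoprotein respectively. Msr1 and Marco are class A scavenger receptors that bind modified lipoproteins and bacteria, and Olr1 is the lectin-like class E receptor for oxidized low-density lipoprotein. LXRs are nuclear receptors that sense oxysterols, which accumulate in macrophages that have taken up cells or lipoproteins, and Mertk is known as an LXR-induced gene.

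A region was called lost when the reference list held a peak there and the other list did not, and gained in the converse case. Strength was compared by rank, because the score of a peak grows with sequencing depth. The percentile is the place of the highest peak score of a region among all peaks of its own list, from 0 for the weakest to 100. A percentile at least 10 points higher or lower was counted as a change. Lists with fewer weak peaks give the same peak a lower percentile, so changes were also read on shared ranks, that is, percentiles re-ranked over the 26439 regions with a peak in all 4 lists. Of the 85 regions, 67 were among them. Each peak carried a number that rose along the chromosome, and the numbers were taken to count peaks as called, before the authors kept only macrophage enhancers. Where no number was missing between the flanking peaks of a list, the enhancer filter had removed no peak there, and where 1 or more was missing, a removed peak could lie in that gap. Distances run along the gene, with negative values upstream of its 5′ end. Coordinates are in GRCm38.

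Of the 85 regions, 67 (78.8%) held a peak in all 4 lists, against 70.2% of all regions, and 18 were absent from at least 1 list. With LPS, 6 regions held a peak that Veh and T0 lacked, in Tgm2, Axl and Msr1, upstream of Marco and near Olr1. Of these, 3 carried an NF-kB consensus in the 200 bp at the midpoint. They are shown with the plus strand 5′ to 3′ and consensus matches in capitals. NF-kB is the factor family activated downstream of TLR4. The other motifs searched on either strand were AP-1 (TGAGTCA or TGACTCA), PU.1 (GAGGAAGT), the nuclear receptor motif AGGTCA, and DR4 (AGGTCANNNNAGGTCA, with at most 2 mismatches in its 12 fixed bases), the arrangement that LXR binds. DR4 holds AGGTCA, so a match to one can overlap a match to the other.
Tgm2 intron, chr2:158145445-158145644: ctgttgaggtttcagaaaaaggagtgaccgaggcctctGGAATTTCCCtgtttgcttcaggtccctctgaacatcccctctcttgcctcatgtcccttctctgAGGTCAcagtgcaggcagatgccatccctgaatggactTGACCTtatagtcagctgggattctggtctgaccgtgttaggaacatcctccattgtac
Axl intron, chr7:25781835-25782034: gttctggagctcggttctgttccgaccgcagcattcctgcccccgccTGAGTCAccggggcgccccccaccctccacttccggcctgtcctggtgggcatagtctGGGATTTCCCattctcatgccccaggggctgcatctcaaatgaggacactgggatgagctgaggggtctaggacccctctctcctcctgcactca
Marco upstream, chr1:120527593-120527792: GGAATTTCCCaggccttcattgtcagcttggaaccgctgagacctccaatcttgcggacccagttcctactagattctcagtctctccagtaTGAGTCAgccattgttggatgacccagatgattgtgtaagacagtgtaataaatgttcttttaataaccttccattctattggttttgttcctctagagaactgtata

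In the Tgm2 window the capitals mark an NF-kB match, which reads GGGAAATTCC on the minus strand, and then AGGTCA on the plus strand and on the minus strand. In the Axl window they mark AP-1 followed by NF-kB. In the Marco window they mark the same 10 letters GGGAAATTCC on the minus strand and then AP-1. An NF-kB match was found in 361 of the 2000 LPS-gained regions of the whole series that had sequence (18.1%) and in 3.84% of regions present in both Veh and LPS. The overlap of NF-kB matches with gained regions was noticed after the values were seen. A match describes the letters and does not show binding.

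Among all 85 windows, AGGTCA was found in 14 (16.5%, against 11.9% of all 37620 windows with sequence), AP-1 in 8 (9.41% against 13.4%), PU.1 in 10 (11.8% against 8.55%) and NF-kB in 4 (4.71% against 4.31%). A DR4 match was found in 1 (1.18% against 1.94%). It lay at chr7:25731543-25731558, in a region 57170 bp downstream of the Axl start, inside an intron of Hnrnpul1. The site is shown because it was the only DR4 match in the 85 windows, with mismatched and spacer bases in lower case. Its 2 mismatches, the most allowed, both fall in its first AGGTCA. A DR4 match with at most 1 mismatch was found in 0 of the 85 windows, against 0.173% of all.
DR4 match near Axl, plus strand: AtGTgAgtaaAGGTCA

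That region was strongest in Veh, with percentiles of 35.9 in Veh, 10.7 in T0, 26.2 with LPS and 4.93 with T0-LPS. Its percentile was thus lower with T0 both without and with LPS, by −10.7 and −11.6 points on shared ranks. A DR4 match was found in 1.95% of all T0-lost regions and in 1.91% of regions present in both Veh and T0. Of the 7 regions lost with T0, 2 held AGGTCA, and 11.8% of all T0-lost regions held it.

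The 85 regions were spread unevenly over the 9 genes, with 15 near Scarb1, 13 near Axl, 12 each near Tgm2 and Cd36, 10 near Msr1, 8 near Olr1, 7 near Mertk, and 4 each near Gas6 and Marco. By position, 41 lay in introns, 32 between genes, 9 on untranslated parts of exons and 3 on other exons. For 55 regions the nearest start of a coding gene was that of the member itself, and for 30 it was another gene's. This was so for all 8 regions of Olr1, which sits in the C-type lectin cluster, and for all but 2 of the 13 of Axl, so that their values cannot be assigned to Olr1 or Axl in particular. Within 1 kb of a coding gene's start lay 17 (20.0%) of the 85, against 29.7% of all regions. No region lay within 1 kb of the 5′ end of Axl, Cd36, Marco or Olr1. Other annotated starts of these genes were not used.

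**Figure D1:**
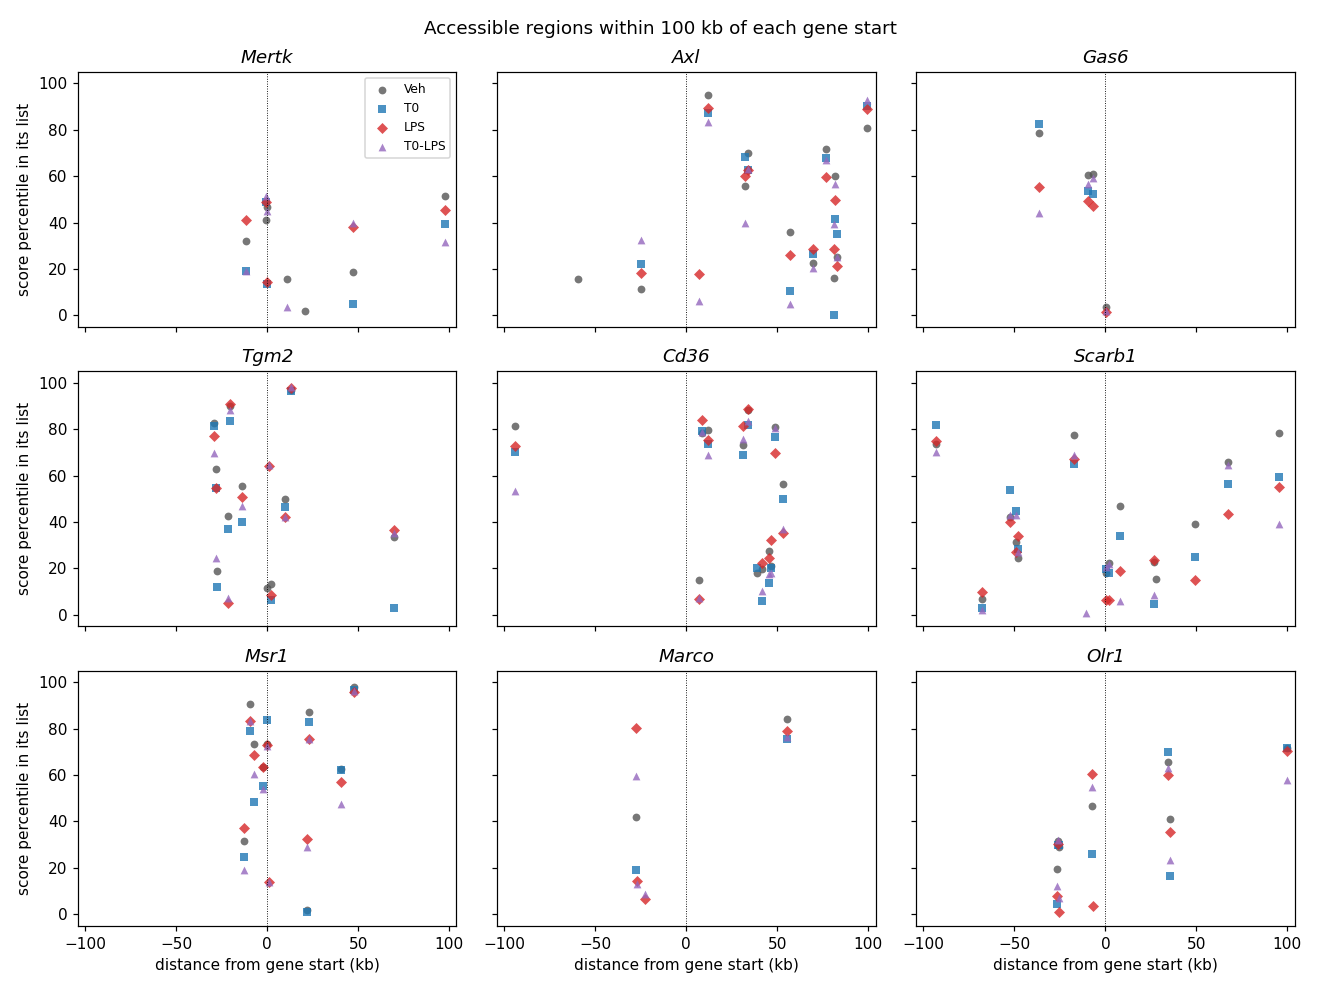
Score percentile in its own list (vertical, 0 to 100) of every region against its distance from the gene start in kb (horizontal, positive along the gene), for Veh (circles), T0 (squares), LPS (diamonds) and T0-LPS (triangles). Tgm2 and Msr1 each had a region above percentile 95 in all 4 lists, and the LPS diamond of the leftmost Marco region stands far above its Veh circle.

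Peaks lay at the starts of macrophage marker genes. Of 10 macrophage marker genes, 10 had a peak within 1 kb of the start in Veh, LPS and T0-LPS and 9 in T0, where Mrc1 had none. None of 5 T cell markers had a peak in any list. In every list 1 of 4 B cell markers (Ms4a1) and 1 of 5 neutrophil markers (S100a8) had a peak, and 1 of 4 fibroblast markers (Col1a1) had a peak in Veh alone. The lists were restricted to enhancers marked in other macrophages, so the counts for macrophage and other markers are in part set by that filter. The lists held 35551 peaks in Veh, 29839 in T0, 33181 with LPS and 31085 with T0-LPS. Library depths were not given in the files. The T0 list was the shortest.

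With T0 against Veh, 7 of the 78 regions with a Veh peak were lost (8.97%, Wilson 95% interval 4.42 to 17.4%), against 18.1% of all regions. None of the 71 with a T0 peak was gained (0 to 5.13%), against 0.729% of all regions. The intervals cover counting error only. The 7 lost regions lay near 6 of the genes. They were 2 intronic sites of Mertk, 1 site far upstream of Axl, the 5′ exon of Gas6, the start of Tgm2, and 1 intron site each in Cd36 and Scarb1.

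All 7 were weak in Veh, between percentiles 1.92 and 15.8. Of the 26 regions at or under percentile 30 in Veh, 7 (26.9%) were lost with T0, against 55.6% of all regions of that strength. None was lost of 20 up to percentile 60 (0%, against 4.54%) or of 32 above it (0%, against 0.683%). For 4 of the 7 no peak number was missing in the T0 list, so that by these numbers the enhancer filter had removed nothing there. For the other 3, at Axl, Gas6 and Cd36, a removed peak could lie in the gap. Each list was also cut to its 29839 strongest peaks, the length of the T0 list. Then 0 of 67 regions were lost with T0, against 7.70% of all regions, and 4 of 71 (5.63%) were gained, against 5.76%. The gained ones lay near Axl, Tgm2, Scarb1 and Msr1. This cut kept Veh peaks from a score of 150 but every T0 peak, from 36. The 7 lost regions thus dropped out, and each gained region had a Veh peak that the cut removed. These shares therefore follow from the cut and show no change with T0. The share lost was 16.8% (22 of 131) within 200 kb of the starts and 16.0% (12 of 75) with scores of at least 100 in every list, where it was 18.5% of all regions. The share near the 9 genes thus lay closer to that of all regions in the wider window and with this score cut. With the cut, a region whose T0 peak scored under 100 also counted as lost. The lower share among the weak Veh regions (26.9% against 55.6%) was computed without these 2 settings only, so it was not shown to hold under them.

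Among the 71 regions with a peak in both lists, the percentile was at least 10 points lower with T0 in 23, against 34.1% of all regions, and higher in 5, against 2.01%. The median change was −6.45 points for the 71 and −5.58 for all regions. On shared ranks, 15 of 67 were higher (22.4%, against 12.8% of all) and 10 lower (14.9% against 12.9%), with a median of −0.526. Lower percentiles with T0 were thus about as common near the 9 genes as elsewhere on whole-list ranks. Higher ones had a larger share near the 9 genes on whole-list ranks (7.04% against 2.01%) and on shared ranks, which was not tested.

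With LPS against Veh, 7 of 78 regions were lost (8.97%, 4.42 to 17.4%, against 13.0% of all regions) and 6 of 77 were gained (7.79%, 3.62 to 16.0%, against 6.14%). The gained regions lay near 5 genes, and for 2 of the 6, in Axl and Tgm2, no peak number was missing in the Veh list. All 7 lost regions were among the 26 weak Veh regions at or under percentile 30 (26.9%, against 39.0% of all regions of that strength), and for 6 of the 7 no number was missing in the LPS list. Within 200 kb the share lost was 16.0% (21 of 131), and with scores of at least 100 it was 10.7%, against 13.9% of all. In regions with both peaks the percentile was at least 10 points higher with LPS in 6 of 71, against 11.4% of all, and lower in 19, against 25.2%. The median change was −4.48 points, against −2.01. On shared ranks 12 of 67 were higher (17.9% against 18.1%) and 13 lower (19.4% against 19.0%). These 2 shares lay close to those of all regions.

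With T0-LPS against LPS, 3 of 77 regions were lost (3.90%, 1.33 to 10.8%, against 9.97%) and 2 of 76 gained (2.63%, against 3.37%). The 3 lost were in Tgm2, in Scarb1 and near Olr1, and the 2 gained were in Mertk and upstream of Scarb1. The 3 lost were among the 26 weak LPS regions (11.5%, against 31.7% of all). With lists of equal length 9.72% were gained, against 6.09% of all. Each of these gained regions near the 9 genes had an LPS peak under 114, the lowest score that cut kept in LPS. The share lost was 6.78% within 200 kb, and 9.59% with scores of at least 100, against 10.8% of all. In regions with both peaks the percentile was higher by at least 10 points in 9 of 74 (against 7.36% of all) and lower in 17 (against 19.3%), with a median change of −1.16 points, against −1.76. On shared ranks 12 of 67 were higher (17.9% against 13.0%) and 10 lower (14.9% against 13.0%). Against T0, the T0-LPS list lost 4 of 71 regions (5.63%, against 7.70%) and gained 9 of 76 (11.8%, against 11.7%). All contrasts with Veh share the Veh list, and both contrasts with T0-LPS share that list.

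**Figure D2:**
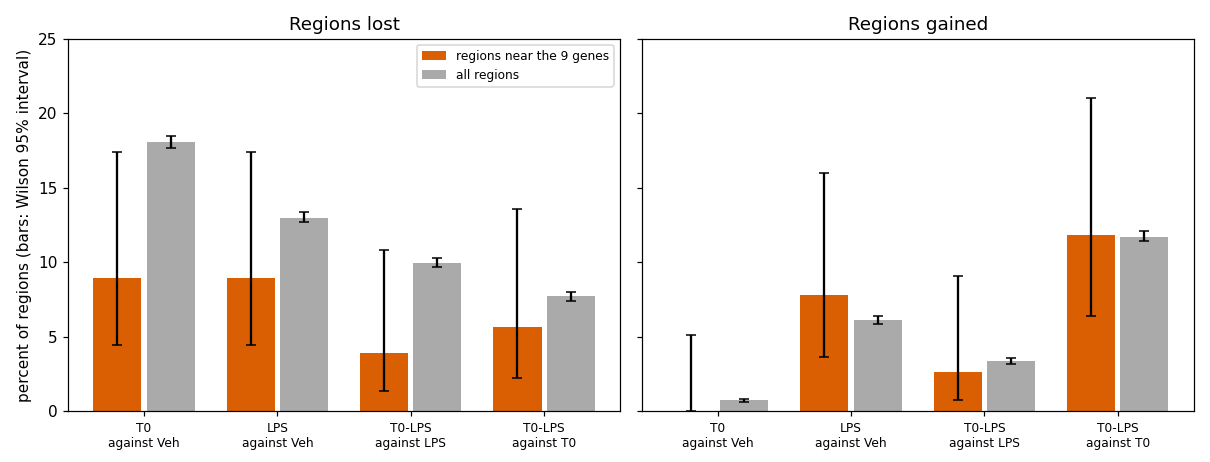
Percent of regions lost (left, of regions with a peak in the reference list) and gained (right, of regions with a peak in the other list) in the 4 comparisons, for regions near the 9 genes (orange) and all regions (grey). Bars start at 0 and whiskers are Wilson 95% intervals, which cover counting error only. With T0 against Veh, 8.97% of the regions near the 9 genes were lost, against 18.1% of all, and none was gained.

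Among the TAM receptors, Mertk (chr2:128698956-128802894, plus strand) had 7 regions, and a pair of them lay at its start. The nearer one, at −127 bp (chr2:128698592-128699067), had scores of 346 in Veh, 126 in T0, 132 with LPS and 261 with T0-LPS. Veh and T0-LPS were thus high, and T0 alone and LPS alone were low. Its percentile was 46.8 in Veh, 13.4 in T0, 14.5 with LPS and 45.1 with T0-LPS, and on shared ranks it was 29.9, 8.38, 5.24 and 37.0 in the same order. This was the lowest change with T0 of any of the 71 regions on whole-list percentiles, and the highest change with T0 in LPS. Its 200 bp window held none of the motifs searched.

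The other region, at −655 bp, had scores of 304 in Veh, 297 in T0, 312 with LPS and 300 with T0-LPS, and its percentile ran from 41.2 in Veh to 51.3 in T0-LPS. Its score was near level across the lists, while the median score of all peaks was 372 in Veh, 305 in T0, 319 with LPS and 292 with T0-LPS. On shared ranks it stood 20.1 points higher with T0 and 14.7 points higher with LPS. The regions of the pair thus differed in how their ranks changed.

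Inside Mertk, the intronic region at 10669 bp had a score of 150 in Veh, no peak in T0 or LPS and a score of 81 in T0-LPS. The intronic region at 20590 bp had a peak in Veh alone, with a score of 78. No peak number was missing for either in the T0 list. The intronic region at 47041 bp had scores of 166 in Veh, 93 in T0, 244 with LPS and 232 with T0-LPS. Its percentile was 18.9 in Veh, 4.76 in T0, 38.0 with LPS and 40.0 with T0-LPS, so that both lists with LPS lay above both without it.

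The 2 remaining Mertk regions lay farther off. The one at −11641 bp sits on the start of Anapc1, a subunit gene of the anaphase-promoting complex, and had percentiles of 32.3 in Veh, 19.1 in T0, 41.2 with LPS and 19.3 with T0-LPS, lower in both lists with T0. On shared ranks the change with T0 was −0.518 points without LPS and −17.3 points with it, so only the latter passed 10 points there. The intronic one at 97755 bp had 51.6 in Veh, 39.4 in T0, 45.6 with LPS and 31.6 with T0-LPS, again lower in each list with T0. On shared ranks these changes were −3.16 and −11.0 points.

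At Axl (chr7:25757273-25788705, minus strand), the intronic region at 6771 bp (chr7:25781517-25782351) whose sequence is printed above had no peak in Veh or T0, a score of 143 in LPS and a score of 95 in T0-LPS. No number was missing there in the Veh list. Only 2 of the 13 regions lay inside Axl. The other, at 11793 bp, was among the strongest of all, with scores of 1103 in Veh, 710 in T0, 801 with LPS and 614 with T0-LPS and percentiles of 95.1, 87.2, 89.6 and 83.3. The score was highest in Veh, and lowest in T0-LPS.

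Around Axl, the region at −59495 bp had a peak in Veh alone (score 150), in a stretch where numbers were missing in the other lists. The region at 80938 bp had percentiles of 16.3 in Veh, 0.226 in T0, 28.7 with LPS and 39.6 with T0-LPS. The region at 32515 bp, which is nearest to the neighbouring gene Hnrnpul1, had 55.8 in Veh, 68.4 in T0, 59.9 with LPS and 39.7 with T0-LPS. T0 went with a higher rank at 32515 bp without LPS and a lower rank with it, by 23.2 and −19.4 points on shared ranks. At 80938 bp the whole-list rank was lower with T0 without LPS and higher with it, but on shared ranks the former change was −2.88 points and the latter 15.2 points. The region at −25100 bp, in an intron of Cyp2s1, had 11.3 in Veh, 22.0 in T0, 18.4 with LPS and 32.4 with T0-LPS, higher with T0 in both pairs. The rest were present in all 4 lists.

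Gas6 (chr8:13465374-13494490, minus strand) had 4 regions. The one on its 5′ exon, at 59 bp, was weak, with scores of 91 in Veh, 69 in LPS and 69 in T0-LPS and no peak in T0, where 1 number was missing. The one at −36662 bp had scores of 696 in Veh, 623 in T0, 359 with LPS and 255 with T0-LPS. Its percentile was 78.8 in Veh, 82.4 in T0, 55.3 with LPS and 44.0 with T0-LPS, so that both lists with LPS lay below both without it, and the change with LPS of −26.6 points on shared ranks was the lowest of the 67. The regions at −9736 and −6901 bp had percentiles of 60.5 and 60.8 in Veh, 53.7 and 52.5 in T0, 49.4 and 47.2 in LPS, and 56.5 and 59.1 in T0-LPS.

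Next to the start of Tgm2 (chr2:158116402-158146436, minus strand), 3 regions were each absent from at least 1 list. The region at 30 bp, on the 5′ exon, had a peak in Veh alone, with a score of 130 and a percentile of 11.5, and no number was missing there in the T0 list. The region at 892 bp, intronic (chr2:158145345-158145743, sequence above), had no peak in Veh or T0, a score of 437 in LPS and a score of 404 in T0-LPS. It was the strongest gained region of the 6, at percentile 64.1 in LPS and 64.8 in T0-LPS, and no number was missing there in Veh or T0. It was thus nearly as strong with T0 as without it. The region at 1980 bp had weak peaks in Veh (137), T0 (102) and LPS (109) and none in T0-LPS.

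Upstream of Tgm2, the region at −27665 bp had scores of 166 in Veh and 124 in T0 and no peak in either list with LPS. The region at −21530 bp had scores of 316 in Veh, 228 in T0, 94 with LPS and 97 with T0-LPS. Its percentile was 42.8, 37.0, 4.96 and 7.30 in that order, so that both lists with LPS lay far below both without it, the lowest change with LPS of the 71 regions at −37.9 points. The region at −28226 bp had percentiles of 63.0 in Veh, 54.7 in T0, 54.8 with LPS and 24.4 with T0-LPS, low in T0-LPS alone.

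The strongest region of Tgm2, intronic at 13188 bp, had percentiles of 96.9 in Veh, 96.6 in T0, 97.7 with LPS and 98.1 with T0-LPS, close to level. The region at −20415 bp had 90.0, 83.4, 90.9 and 88.5 in the same order. The distal region at 69551 bp, on an untranslated exon part of Rprd1b, had 33.7 in Veh, 2.96 in T0, 36.4 with LPS and 35.5 with T0-LPS, low in T0 alone. On shared ranks the latter's change with T0 was −13.4 points.

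Cd36 (chr5:17781690-17888801, minus strand), the class B receptor for oxidized lipoproteins, had all 12 of its regions in introns, 11 of them in its own. Of the 12, 10 were present in every list. The region at 6705 bp had scores of 146 in Veh, 102 in LPS and 98 in T0-LPS and no peak in T0, where 2 numbers were missing. The region at 38998 bp had scores of 161 in Veh and 153 in T0 and no peak in either list with LPS, with no number missing in LPS.

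The strongest Cd36 region, at 34064 bp, had percentiles of 88.2 in Veh, 81.8 in T0, 88.8 with LPS and 83.4 with T0-LPS. The region at −94167 bp, in an intron of Gnat3, had 81.3 in Veh, 70.0 in T0, 72.9 with LPS and 53.2 with T0-LPS, the lowest being T0-LPS. The region at 52908 bp had 56.3 in Veh, 49.9 in T0, 35.3 with LPS and 37.1 with T0-LPS, lower in both lists with LPS. At 41681 bp the percentile was 19.7 in Veh, 5.95 in T0, 22.2 with LPS and 10.2 with T0-LPS, lower in both lists with T0, but on shared ranks these changes were −1.03 and −5.22 points.

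Scarb1 (chr5:125277087-125341094, minus strand), the receptor for high-density lipoprotein, had 15 regions, of which 9 were nearest to its own start. The region on the exon at its start, at 225 bp, had scores of 161 in Veh, 151 in T0, 100 with LPS and 146 with T0-LPS, with percentiles of 18.0, 19.9, 6.47 and 20.6. In the intron, the region at 1835 bp had 22.4, 17.9, 6.47 and 22.0, and both regions were lowest in LPS. On shared ranks the former was 3.55, 13.6, 1.68 and 12.6 and the latter 5.69, 11.9, 1.68 and 13.8, so that Veh lay near LPS there and both lists with T0 lay above both without it. The region at 67173 bp was also lowest in LPS, with 66.1 in Veh, 56.6 in T0, 43.4 with LPS and 64.4 with T0-LPS, and a change with T0 in LPS of 27.3 points on shared ranks.

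Other Scarb1 regions were lower in LPS and lower still in T0-LPS. The intronic region at 7867 bp had scores of 346 in Veh, 214 in T0, 149 with LPS and 92 with T0-LPS and percentiles of 46.8, 34.2, 19.1 and 5.86. On shared ranks its change with LPS was −22.0 points, and that with T0 in LPS was −5.46 points. The intronic region at 49008 bp had scores of 289 in Veh, 172 in T0 and 134 in LPS and no peak in T0-LPS. The region at 95135 bp had percentiles of 78.2 in Veh, 59.5 in T0, 55.3 with LPS and 39.1 with T0-LPS. In all of these Veh was highest, and T0-LPS was lowest or without a peak.

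The intronic region at 27620 bp had a peak in Veh alone (score 148), and the region at −10913 bp had one in T0-LPS alone (score 61, percentile 0.859).

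The class A receptors held the 2 highest changes with LPS on whole-list percentiles, at Marco −27701 bp and Msr1 22119 bp. On shared ranks the Msr1 change was 19.3 points, below those at Olr1 −7267 bp (22.0) and Mertk 47041 bp (21.4). Msr1 (chr8:39581685-39642673, minus strand), the macrophage scavenger receptor, had a region at its start, at −107 bp, with scores of 619 in Veh, 646 in T0, 528 with LPS and 480 with T0-LPS and percentiles of 73.5, 83.9, 72.9 and 72.7. It was highest in T0. The intronic region at 863 bp had no peak in Veh or T0 and scores of 128 in LPS and 121 in T0-LPS. In Veh 2 numbers were missing there, and in T0 none.

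The Msr1 intronic region at 22119 bp (chr8:39620304-39620805) had scores of 78 in Veh, 68 in T0, 213 with LPS and 179 with T0-LPS. Its percentile was 1.92 in Veh and 0.995 in T0, against 32.4 in LPS and 28.8 in T0-LPS, so that the 2 lists with LPS and the 2 without it lay far apart. The next region, at 22809 bp, went the other way, with percentiles of 87.4 in Veh, 83.1 in T0, 75.5 with LPS and 75.5 with T0-LPS. The strongest, at 47679 bp, had scores of 1286 in Veh, 1026 in T0, 1016 with LPS and 966 with T0-LPS, above percentile 95 in each list.

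The region at −7500 bp was the Msr1 region with the lowest change with T0, with scores of 617 in Veh, 294 in T0, 484 with LPS and 368 with T0-LPS. On shared ranks its change with T0 was −22.1 points, the lowest of the 67.

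Marco (chr1:120474538-120505024, minus strand) had 4 regions, none within 1 kb of its start, and 3 of them formed a cluster upstream. The region at −27701 bp (chr1:120532518-120532932) had scores of 308 in Veh, 148 in T0, 622 with LPS and 360 with T0-LPS. LPS was highest and T0 lowest, and in each pair the list with T0 was the lower. Its percentile was 41.8 in Veh, 19.1 in T0, 80.1 with LPS and 59.6 with T0-LPS, and on shared ranks its change with LPS was 51.5 points, the highest of the 67, and its change with T0 in LPS was −22.1 points.

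Beside it, the region at −26935 bp had no peak in Veh or T0 and scores of 132 in LPS and 118 in T0-LPS. The region at −22668 bp (chr1:120527548-120527837, sequence above) likewise had no peak in Veh or T0 and scores of 101 in LPS and 103 in T0-LPS. For both, 3 numbers were missing in the stretch in Veh and 2 in T0, so that a removed peak could lie there. The region at 55224 bp, beyond the end of the gene, had percentiles of 84.3 in Veh, 75.4 in T0, 79.0 with LPS and 76.5 with T0-LPS.

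**Figure D3:**
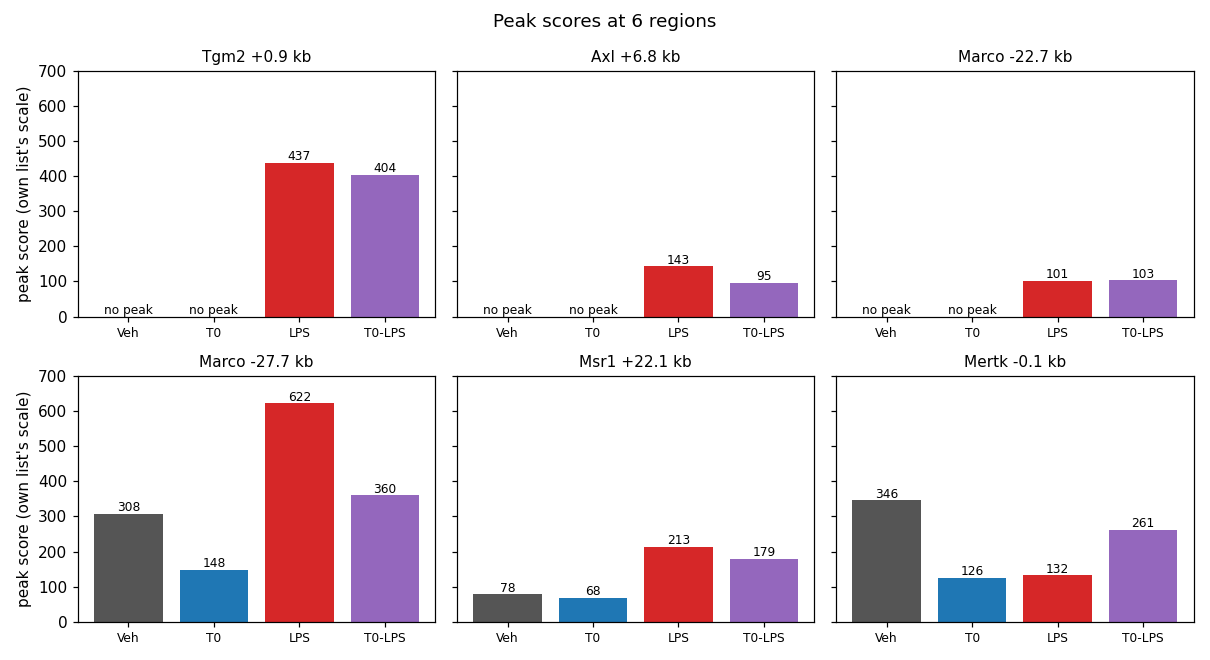
Peak scores (vertical, in the units of its own list, from 0) in Veh, T0, LPS and T0-LPS at the 3 LPS-gained regions with an NF-kB match, the 2 regions with the highest change with LPS on whole-list percentiles, and the region with the lowest change with T0 on them. The top row has no peak without LPS, the Marco region of the bottom row is highest in LPS (622), and the Mertk region is high in Veh (346) and T0-LPS (261).

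Around Olr1 (chr6:129485244-129507165, minus strand), none of the 8 regions had Olr1 as its nearest coding gene, and the closest lay at −6867 bp, in an intron of Tmem52b. That region was present with LPS only, at a score of 87, and numbers were missing in the same stretch of the Veh list. Its neighbour at −7267 bp had scores of 344 in Veh, 175 in T0, 405 with LPS and 325 with T0-LPS and percentiles of 46.5, 25.8, 60.6 and 55.0. It was lowest in T0 and highest in LPS.

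The region at −25599 bp, which lies before the start of the autophagy gene Gabarapl1, had scores of 224 in Veh, 195 in T0, 66 with LPS and 96 with T0-LPS. Its percentile was 29.2, 30, 1.00 and 6.84 in that order, low in both lists with LPS. The region at 35582 bp, in an intron of the beta-glucan receptor gene Clec7a, had 41.2 in Veh, 16.5 in T0, 35.6 with LPS and 23.6 with T0-LPS, lower in both lists with T0. On shared ranks these changes were −12.4 and −7.45 points.

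**Figure D4:**
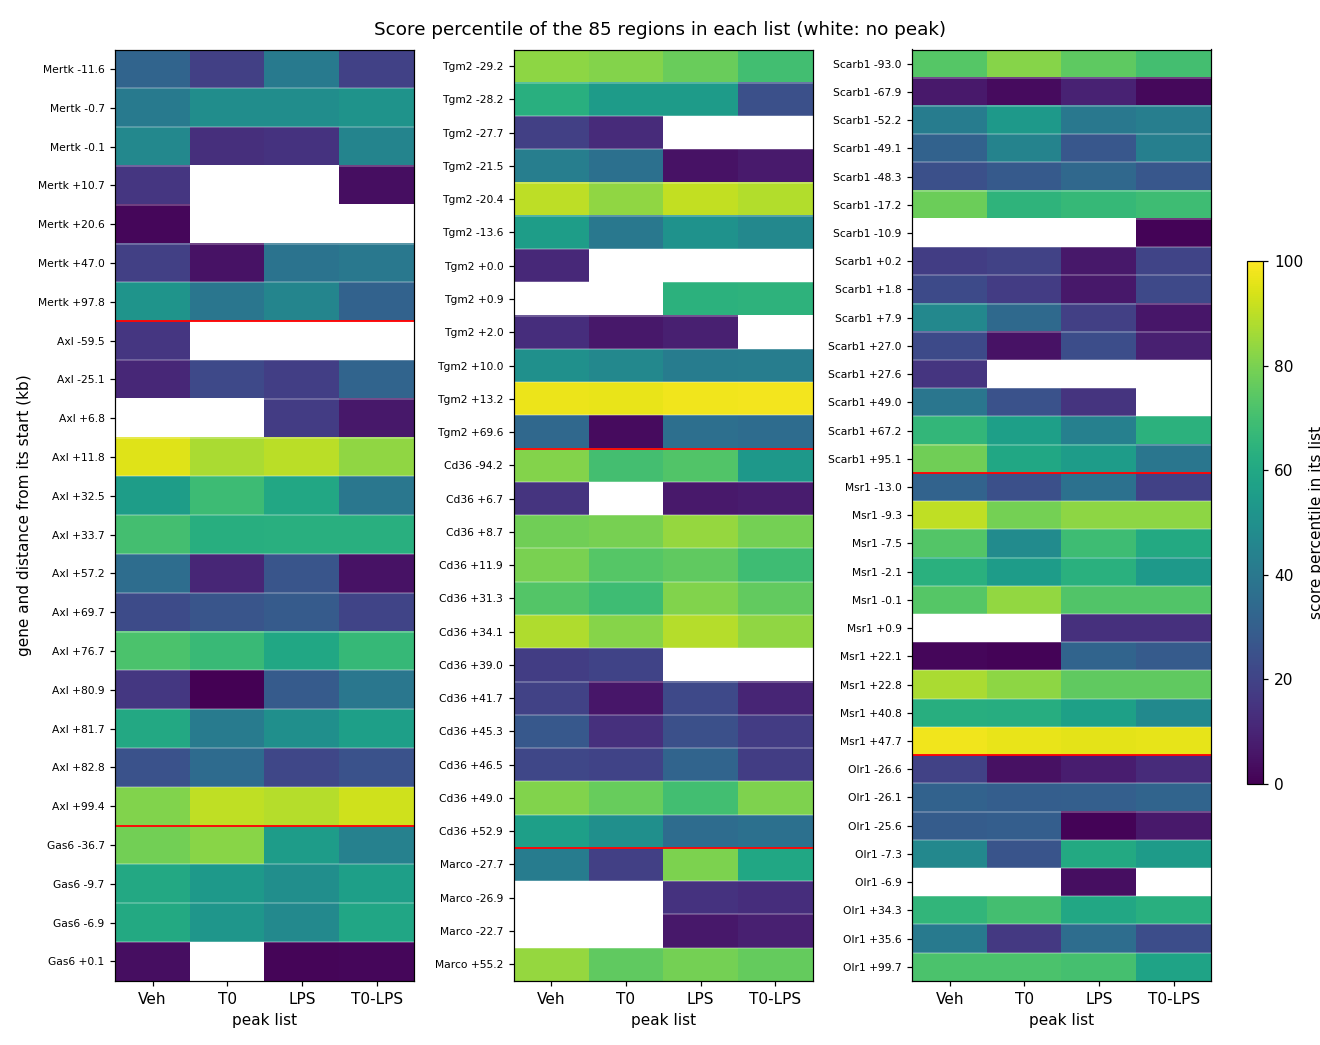
Score percentile of each of the 85 regions (rows, by gene and distance from its start in kb) in the 4 peak lists (columns), from 0 (dark) to 100 (yellow), with white where the list had no peak. White cells fall in 18 rows, and strong regions such as the Tgm2 region of percentile 96.9 in Veh stay bright in every column.

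The change with T0 was set against LPS status region by region, although the agonist was also present 2 h longer with LPS. In the 67 regions of the shared ranks, the change ranged from −22.1 to 25.7 points without LPS and from −28.6 to 31.8 points with it. The lowest with LPS was the Tgm2 region at −28226 bp and the highest the Mertk region at −127 bp.

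**Figure D5:**
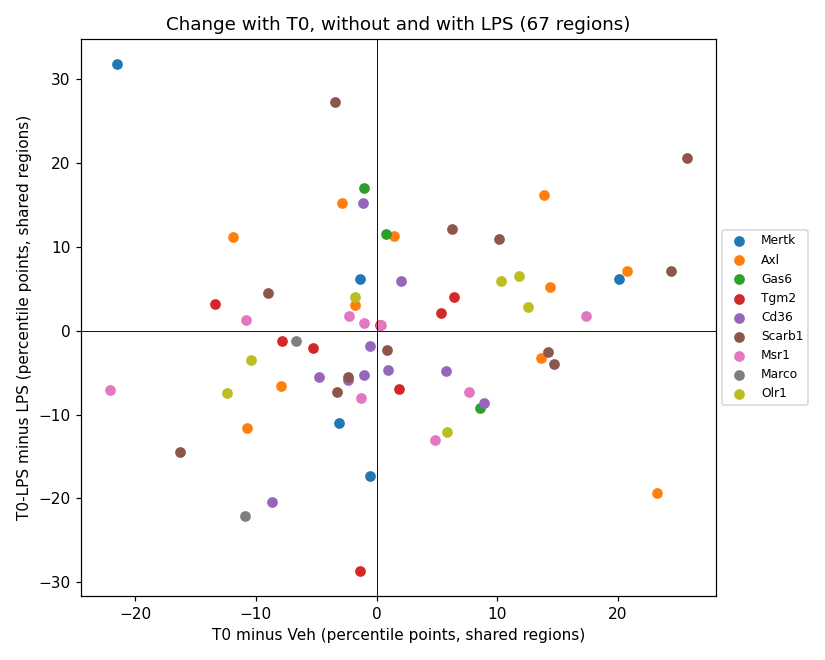
Change with T0 in percentile points on shared ranks, without LPS (horizontal, T0 minus Veh) and with LPS (vertical, T0-LPS minus LPS), for 67 regions coloured by gene. The 2 axes use different pairs of lists, and the agonist was present 2 h longer in T0-LPS than in T0. The Mertk region at the upper left had −21.5 points without LPS and 31.8 points with it.

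The other genes of clearance and scavenger uptake were taken as a list of 35, among them Tyro3, Pros1, Mfge8, Lrp1 and the complement genes C1qa, C1qb and C1qc, with 316 regions, and 5 of them had no region. With T0, 54 of their 304 Veh regions were lost (17.8%, against 18.1% of all regions) and 1 was gained, near Ucp2. With LPS, 50 were lost (16.4%, against 13.0%) and 9 of 263 gained (3.42%, against 6.14%). With T0 in LPS 18 of 263 were lost (6.84%, against 9.97%) and 12 gained (4.67%, against 3.37%). No region of C1qa, C1qb, C1qc, Pros1, Dock1 or Anxa1, with 3 to 5 regions each, was lost or gained in these 3 comparisons. With so few regions, and 18.1% of all regions lost with T0, this does not set these genes apart. A region near several genes was counted for each, so the equal counts of C1qa, C1qb and C1qc may not be separate ones. P2ry2, a receptor for nucleotides released by dying cells, had the most, with 9 of its 26 regions lost with T0 and 8 with LPS.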

How the data were processed

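ATAC-seq was performed on 16 libraries in 4 groups of 4, per the labels. The authors trimmed adaptors with cutadapt, aligned reads with Bowtie2, used SAMtools to drop PCR duplicates and MACS2 to call peaks on the libraries of a group together, with no model and a fixed shift and extension. They kept peaks that lay at enhancers carrying H3K27ac or H3K4me2 in other macrophages, so promoters and sites without these marks can be missing. The labels' processing notes name mm10 and bedtools. The deposited files give each peak its position, a name ending in a number, and a score from the authors' peak caller. The header does not state its scale, and it grows with depth, so it was compared by rank within a list.

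Peaks of the 4 lists that overlapped by at least 1 bp were merged. Genes were taken from GENCODE vM21 basic (GRCm38), and sequence from RefSeq GRCm38.p6. All 95 genes looked up were found. A region's nearest gene is the one whose 5′ end is closest. Motifs were searched in 200 bp at the midpoint. Python 3.11.15, pandas 2.3.3, scipy 1.17.1 and statsmodels 0.14.6 were used, and the calls were tested on simulated lists. No test between groups was run, since each group has 1 list. The depth per library is unknown. All 9 genes are named, with each region that was lost or gained, the region nearest each start and, apart from some single regions not reported here, the largest changes of each gene. The genes, lists and motifs were chosen with earlier results of these data known.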

Additional observations from a re-analysis of the deposited data

Results flagged for a closer look

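Of the 67 regions with a peak in all 4 lists, the percentile change with T0 had opposite signs without and with LPS in 26, and 27 on shared ranks. The same count was not made over all regions, so it does not set these genes apart. In 3 of the 67 regions the signs were opposite and both changes were at least 10 points on whole-list percentiles. Shared ranks also gave 3, with the Axl region at 81729 bp (−11.9 points without LPS and 11.2 with it) in place of the Axl region at 80938 bp. A further region was lost with T0 and gained with T0 in LPS. Each group has 1 pooled list, so the difference was not tested. The agonist was also present 2 h longer in T0-LPS than in T0, so LPS and agonist time cannot be told apart. At the Mertk region at −127 bp, the percentile change with T0 in LPS exceeded that without LPS by 64.0 points. The Mertk region at 10669 bp was absent with T0 alone and present in T0-LPS with a score of 81, while LPS alone had none. At the Axl region at 80938 bp the difference of the changes was 27 points, but on shared ranks its change without LPS was −2.88 points, under 10. At the Axl region at 32515 bp the difference was −32.8 points.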

How the results depend on the processing

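Of 102 values recomputed under alternatives, 83 stayed within the interval of the reported value or, for counts, within 1.5 times of it, and 19 moved. The intervals were wide. A share lost with T0 of 16.8% within 200 kb, for example, counted as within the interval of the reported 8.97%. Restricting the tested peaks to scores from 200 left 0.0% lost in all 4 comparisons, 1.96% gained with LPS, 0.0% gained in T0-LPS against LPS and 2.22% in T0-LPS against T0. In lists cut to the 29839 strongest peaks, T0 against Veh had 0.0% lost and 5.63% gained, and T0-LPS against LPS had 9.72% gained. Each of these gained regions held a weak peak in the reference list that the cut removed. With scores of at least 100 in every list, 0.0% were gained in T0-LPS against LPS. Counting only regions where no peak number was missing, 2.6% were gained with LPS. On ranks over shared regions, the median change with T0 was −0.526 points, with 15 higher and 10 lower, against 5 and 23 on whole-list percentiles, so that the balance turned. On the same ranks 12 were higher with LPS, and 10 were lower in T0-LPS against LPS. These counts on shared ranks were added after seeing the data. On ranks of peak width the median was −1.2 points with T0 and −3.13 points in T0-LPS against T0. That median was 0.196 as reported, −0.912 on shared ranks and −0.431 within 200 kb, so its sign is not settled. The depth of each list limits the calls of weak peaks, and no lost region near the 9 genes had a score of 200 or more in the list that held it. No paired analysis was possible because the libraries of a group were pooled into 1 list.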

Other observations

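Beside the 9 genes, 10 LXR-induced lipid efflux genes had 82 regions and 15 inflammatory genes had 131. With T0, 12.2% of the efflux genes' Veh regions and 19.6% of those of the inflammatory genes were lost, against 18.1% of all regions. On shared ranks, 33.3% of the efflux regions were at least 10 points higher with T0 and 8.77% lower, against 22.4% and 14.9% of the regions near the 9 genes and 12.8% and 12.9% of all. With LPS, 14.8% of the inflammatory genes' LPS regions were gained, against 9.86% for the efflux genes, 7.79% for the 9 genes and 6.14% for all regions. These lists were chosen with earlier results known, and no difference between them was tested.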
